A study of Homo sapiens with 6 samples.

Results

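The comparison set SULF2 sgRNA3 against the LACZ control in CFPAC-1 cells, an established human pancreatic ductal adenocarcinoma line. Its members are 4 of the 6 RNA-seq libraries of the series: LACZ replicates 1 and 2, whose guide RNA targets the bacterial gene LACZ, and sgRNA3 replicates 1 and 2, whose guide RNA sgRNA3 targets SULF2. The labels describe all of them as knockdown cells, with RNA extracted in TRIzol, and name no drug, dose or time. The remaining pair of libraries, with sgRNA1 against SULF2, entered the estimate of the spread between replicates and a comparison of the guides for the interferon genes. Columns named H3 in the deposited table were matched to the titles S3 by the guide number. Whether the guides cut or repress their target, where they lie in the gene, and whether the cells are a clone or a pool are not stated in the labels. The values were TPM (a transcript level scaled for length and to the same total in every library). Of the 59962 genes in the table, 15978 reached 1 TPM in at least 2 of the 4 libraries and were compared.

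SULF2 encodes a secreted sulfatase that trims 6-O-sulfates off heparan sulfate chains on cell-surface and matrix proteoglycans. Many growth factors, cytokines and chemokines bind those chains, so the sulfation pattern sets how they are stored and presented to receptors. In pancreatic carcinoma cells such signals are known to run through the EGF receptor and ERK cascade, TGF-beta, NF-kB and the stress-responsive transcription factors, whose target genes were followed below.

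The libraries carried the transcripts of ductal carcinoma cells. KRT19, a duct keratin, stood at 2915 and 2909 TPM with LACZ and 2627 and 2630.2 TPM with sgRNA3, KRT7 at 1021 and 1035 against 1056 and 980.4 TPM, and the epithelial adhesion protein EPCAM at 368 and 338 against 379.9 and 389 TPM. CFTR, the duct chloride channel, did not pass the minimum (0.3 and 0.38 TPM against 0.07 and 0.3 TPM). None of 6 acinar markers, such as CPA1, and none of 6 islet markers, such as INS and GCG, passed the minimum, and INS, GCG, CPA1 and the fibroblast marker DCN were listed at 0 in all 4 libraries. The 6 acinar markers summed to 0.61 to 1.56 TPM per library and the 6 islet markers to 0 to 2.33 TPM. Leukocyte markers summed to 8.86 and 15.9 TPM with LACZ and 7.56 and 7.29 TPM with sgRNA3, with PTPRC, which marks all leukocytes, at or below 0.1 TPM. The 6 fibroblast markers summed to 77.9 and 77.5 TPM against 41.7 and 37.6 TPM, nearly all of it COL1A1, which is described below. A panel of 6 hepatocyte and neural markers, of which 2 passed the minimum, summed to 121 and 131 TPM against 117 and 115 TPM. Endothelial markers summed to 5.38 and 5.05 TPM against 4.47 and 4.96 TPM. In bulk RNA, fewer cells of one kind and less RNA per cell cannot be told apart.

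Of 15978 genes, 674 rose (4.22%) and 915 fell (5.73%) with sgRNA3, 9.94% in all, at an adjusted p under 0.05 (limma on log2 of TPM plus 1, Benjamini-Hochberg over all genes tested). All log2 changes below are on that scale, as sgRNA3 minus LACZ, and understate the change of genes with low TPM. The median over all genes tested was -0.04. Among the 1589 called genes the median absolute log2 change was 0.54. Of these, 696 moved by less than 0.5, while 79 rose and 174 fell by at least 1. Groups of 2 libraries often do not overlap, and for 60.1% of all tested genes both sgRNA3 values lay on the same side of both LACZ values, so non-overlap alone says little. No called gene had overlapping groups, so where non-overlap is given below for a called gene it adds nothing to the call. Calls were more frequent among abundant transcripts. In genes with a mean over 100 TPM, 225 of 1518 rose and 180 fell (26.7% called), against 36 and 90 of 4395 genes under 5 TPM (2.87%). Counts for the gene lists below stand beside 4.22% of all genes that rose and 5.73% that fell, and they were not matched for level. Some lists share members, for example TGFB2, AREG, VEGFA, DDIT4 and LIF. The same fall can therefore be counted in several lists, which are not separate evidence. No label says that replicates were separate cultures, so the p-values rest on a spread between libraries that may be technical.

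The number of calls rested on having both replicates of each group. Without LACZ replicate 1, 90 genes rose and 129 fell. The counts were 87 and 156 without LACZ replicate 2, 112 and 130 without sgRNA3 replicate 1, 97 and 121 without sgRNA3 replicate 2, 433 and 564 without sgRNA1 replicate 1, and 431 and 566 without sgRNA1 replicate 2. A set of 46 genes that rose (0.288% of those tested) and 85 that fell (0.532%) passed with the same sign in the fit of all libraries and in each of these 6 fits. These 131 genes are called stable below, and a called gene that is not stable lost its call without at least 1 of the 6 libraries. The rule selects genes whose replicates lie close together beside the gap between groups. Close replicates in a stable gene therefore describe its values and are no further support. The split between rising and falling genes depended on the scaling, with 42.4% of calls higher as reported and 55.1% higher (1049 against 854) under median-of-ratios scaling.

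SULF2 itself (ENSG00000196562, minus strand of chromosome 20) stood at 25.7 and 22.5 TPM with LACZ and at 10.1 and 9.24 TPM with sgRNA3. Both sgRNA3 values lay below both LACZ values, at 40.1% of the LACZ mean, and the gene fell by 1.23 on the log2 scale (SE 0.18, limma adjusted p = 0.0199). SULF2 was not stable. Its adjusted p was 0.112 without LACZ replicate 1, 0.0935 without LACZ replicate 2, 0.0922 without sgRNA3 replicate 1 and 0.102 without sgRNA3 replicate 2, with log2 changes of -1.33 to -1.14. SULF1, the other extracellular sulfatase, was listed at 0 in every library. The rest of the heparan sulfate machinery moved little. Of 19 tested sulfatases and chain-building enzymes, 1 rose beside the fall of SULF2, the epimerase GLCE (26.1 and 25.3 TPM to 32.7 and 35.9 TPM, log2 change 0.40). The 6-O-sulfotransferases HS6ST1 (11.4 and 12.3 TPM against 9.87 and 11.1 TPM) and HS6ST2 (21.7 and 20.3 against 26.6 and 25.1 TPM), which add the group that SULF2 removes, did not pass. Among 14 proteoglycan core proteins, GPC4 (log2 change -0.63), COL18A1 (-0.62) and SDC4 (-0.27) fell and CD44 rose (0.34). Neither the call of GLCE nor that of any of these 4 cores was stable.

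The largest stable falls were of EGR1 and CHAC1. EGR1, an immediate early transcription factor induced by ERK signalling, went from 92.4 and 92.1 TPM in the LACZ libraries to 2.46 and 2.70 TPM with sgRNA3, which was 2.8% of the LACZ mean (log2 change -4.70, SE 0.14, adjusted p = 0.000612). CHAC1, an enzyme that degrades glutathione, followed with 62.8 and 61.9 TPM against 5.95 and 5.93 TPM (-3.19, SE 0.15). In both genes the replicates lay close together and the groups far apart. The other 13 of the 15 stable protein-coding genes with the largest falls were ATF3, JDP2, DDIT4, SESN2, TNFSF18, JUNB, GDF15, HBEGF, TXNIP, GADD45B, ERRFI1, FXYD6 and CXCL2, with log2 changes of -2.63 to -1.62. By change in mean TPM, the stable genes that lost most were MT-RNR2, LCN2, CXCL8, IER3 and ANKRD1.

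Stable rises were fewer than stable falls. Apart from a read-through gene described at the end, PI3 rose most, from 2.18 and 2.27 TPM to 13.3 and 18.7 TPM (2.38, SE 0.18, adjusted p = 0.00387). PI3 encodes elafin, a secreted elastase inhibitor of epithelia, and its LACZ values were nearly equal while its sgRNA3 values were high and more spread. Of the 15 stable protein-coding genes with the largest rises, 5 were interferon-induced genes (IFI44L, IFIT1, OAS2, IFI6 and MX1) and 3 were HSP70 genes (HSPA1A, HSPA1B and HSPA8). The rest were ABCE1, RGS4, ATF5, ATAD3B and HIST1H2BK. RGS4, which shortens G-protein signals, went from 20.7 and 21.9 TPM to 52.5 and 50.1 TPM (1.23), while its relative RGS2 fell from 370.2 and 354 TPM to 156 and 154 TPM (-1.22). By change in mean TPM, the stable genes that gained most were FTH1, FTL, HSPA8, IFI27 and ISG15.

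**Figure D1:**
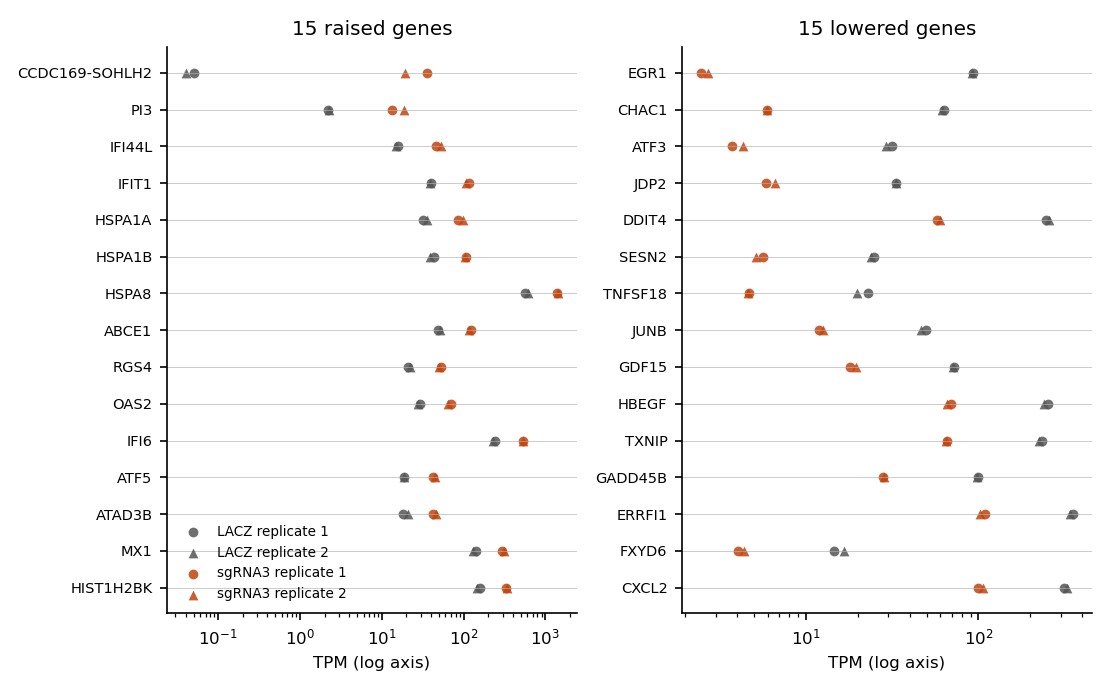
TPM (log axis) of the 15 raised and 15 lowered stable protein-coding genes with the largest log2 changes, in LACZ (grey) and sgRNA3 (orange) replicates 1 (circles) and 2 (triangles). Replicates lie close together beside the gap between groups, which the stable rule selects for, for example 92.4 and 92.1 TPM against 2.46 and 2.70 TPM in EGR1. The raised CCDC169-SOHLH2 and PI3 have the widest sgRNA3 pairs.

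Most interferon effectors, the antiviral proteins that cells make in response to type I or III interferon, rose. Of 34 members tested, 24 rose and none fell, with a list median of 0.66 beside -0.04 over all genes. Summed over the list, the level went from 5871 and 6060.4 TPM in the LACZ libraries to 8882 and 8938 TPM with sgRNA3. Stable members were IFI44L, IFIT1, OAS2, IFI6, MX1, IFIT3, ISG15, OAS3 and IFI27. Once 1 of the 4 LACZ and sgRNA3 libraries was dropped, 9 to 12 members passed, and 22 without an sgRNA1 library.

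Promoters of 3 of these genes are shown because they hold the interferon-stimulated response element, the DNA motif through which interferon switches these genes on. They are the 250 bases before the RefSeq start on GRCh38.p14, read 5′ to 3′ on the gene's strand, with matches on either strand (TTTC, any 2 bases, TTTC) in capitals.
ISG15 promoter, chr1:1013247-1013496, plus strand: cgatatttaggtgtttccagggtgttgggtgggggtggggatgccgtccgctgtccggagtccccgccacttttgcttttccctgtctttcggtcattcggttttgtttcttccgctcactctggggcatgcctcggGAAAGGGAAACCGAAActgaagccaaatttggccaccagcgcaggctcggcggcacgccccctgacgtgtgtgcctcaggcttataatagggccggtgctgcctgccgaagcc
IFIT1 promoter, chr10:89392373-89392622, plus strand: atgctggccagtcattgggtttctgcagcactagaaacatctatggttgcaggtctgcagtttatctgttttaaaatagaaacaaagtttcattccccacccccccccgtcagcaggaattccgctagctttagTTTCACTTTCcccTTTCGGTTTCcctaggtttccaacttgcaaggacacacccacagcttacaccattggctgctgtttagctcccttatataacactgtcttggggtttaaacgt
IFI6 promoter, chr1:27672193-27672442, minus strand: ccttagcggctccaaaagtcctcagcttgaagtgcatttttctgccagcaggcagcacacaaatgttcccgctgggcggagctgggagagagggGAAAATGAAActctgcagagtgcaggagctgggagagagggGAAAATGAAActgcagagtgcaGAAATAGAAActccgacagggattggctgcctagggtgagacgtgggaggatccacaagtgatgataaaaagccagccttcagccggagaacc
The ISG15 matches overlap and begin 113 and 107 bases before the start, those of IFIT1 begin 116 and 103 bases before it, and IFI6 has 3 matches, at 156, 115 and 93 bases. Of 27 interferon effectors with a RefSeq promoter, 19 held the motif (70.4%), against 3.71% of 27305 RefSeq genes. It was present in 16 of 21 members that rose and in 3 of 6 that did not pass. The motif was chosen for search after the values were seen, and a match describes the letters, not binding.

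ISG15, a ubiquitin-like protein attached to other proteins and also secreted, went from 617 and 623 TPM to 1134 and 1165 TPM (log2 change 0.89, SE 0.04, adjusted p = 0.00102). IFIT1, which binds viral RNA lacking a host cap mark, stood at 39.95 and 39.04 TPM against 117 and 106 TPM (1.47, SE 0.06). IFI6, a membrane protein of the endoplasmic reticulum and mitochondria, stood at 245 and 231 TPM against 536 and 529 TPM (1.16, SE 0.05). In these 3 genes both sgRNA3 libraries lay well above both LACZ libraries. The GTPase MX1 went from 143 and 130.1 TPM to 293 and 313 TPM, and IFI27, the most abundant member, from 2692 and 2829.9 TPM to 3746 and 3779 TPM (0.45). The oligoadenylate synthetases, which activate RNase L, rose by 0.65 (OAS1), 1.20 (OAS2) and 0.81 (OAS3). RSAD2, the antiviral enzyme viperin, rose from a low 3.45 and 3.24 TPM to 9.78 and 10.1 TPM (1.33) and was not stable. Not all members moved, since ISG20, an exonuclease, was at 22.2 and 18.5 TPM against 17.4 and 22.2 TPM with overlapping groups. IFITM2 (190.4 and 192 TPM against 202 and 200.6 TPM) did not pass while its near-identical neighbours IFITM1 (0.49) and IFITM3 (0.34) rose, and reads shared by the 3 copies make their separate values uncertain.

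**Figure D2:**
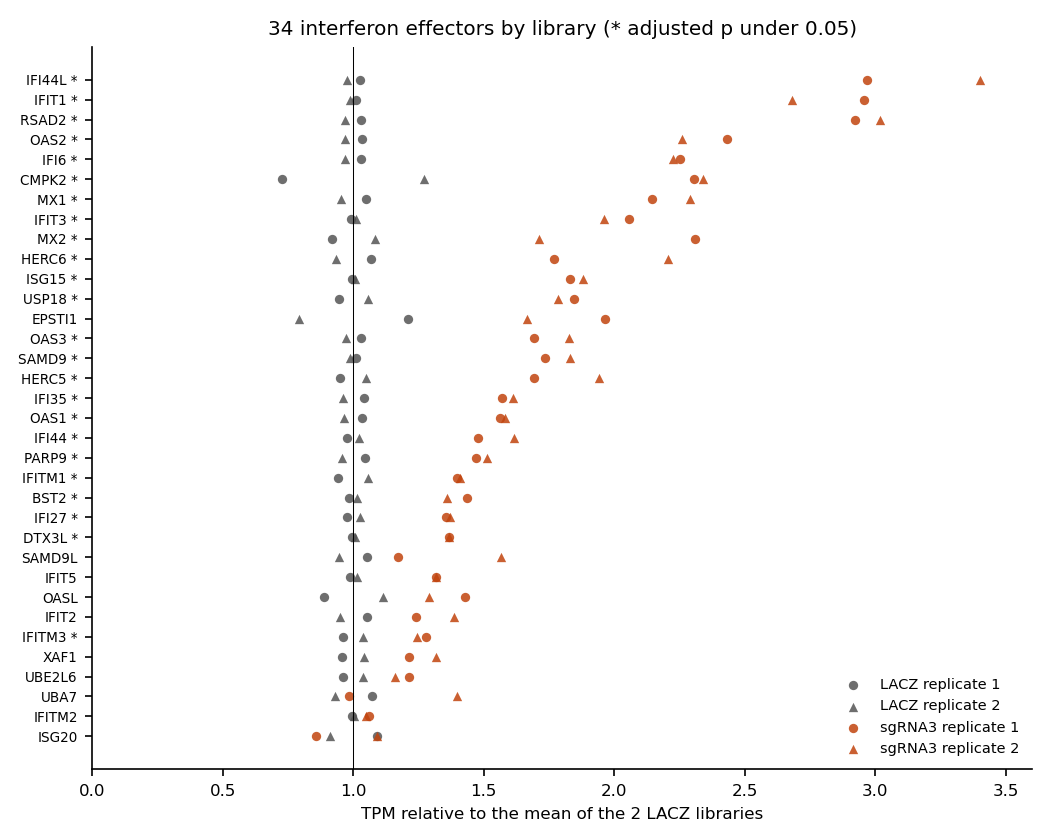
TPM of 34 interferon effectors (rows) in LACZ (grey) and sgRNA3 (orange) replicates 1 (circles) and 2 (triangles), divided by the mean of the LACZ pair. Stars mark the 24 members that rose; IFI44L and IFIT1 lie near 3 times the LACZ mean, whereas ISG20 and UBA7 overlap with LACZ.

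Of 30 signalling genes upstream of the effectors, 6 rose and 2 fell, against 9.94% of all genes in either direction, and the list median was -0.03. The transcription factors STAT2 (33.5 and 31.1 TPM against 29.1 and 30.6 TPM) and IRF9 (174 and 179.6 TPM against 206 and 192 TPM) did not pass. The double-stranded RNA sensors IFIH1 (0.64), EIF2AK2 (0.66) and DDX60 (0.98, stable) rose, as did TRIM25 (0.82) and IRF7 (0.37). IRF1, a transcription factor shared with NF-kB and interferon-gamma responses, fell (125 and 122 TPM to 71.2 and 83.8 TPM, -0.67), and SOCS3 fell by 0.60. The receptor subunits IFNAR1, IFNAR2 and IFNLR1 did not pass (log2 changes 0.16, 0.01 and -0.05). After dropping 1 of the 4 LACZ and sgRNA3 libraries, 1 to 3 signalling genes rose and 0 to 1 fell. Among 19 genes of MHC class I and peptide loading, which interferon also induces, 6 rose and none fell, including B2M (3671 and 3539 TPM to 4195 and 4247 TPM, 0.23), TAP1 (0.44) and the regulator NLRC5 (0.85). In the fits that left out 1 of the 4 LACZ and sgRNA3 libraries, 0 to 1 of the 19 passed. CXCL10, a chemokine induced by interferon, rose from 0.86 and 0.61 TPM to 3.12 and 3.93 TPM and was not stable.

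Whether the interferon effectors also stood higher than with the other SULF2 guide was read from the same fit, in a contrast added after the values were seen. Of the 34 effectors, 9 were higher with sgRNA3 than with sgRNA1 and none lower, against 0.413% of all genes tested that were higher (66 of 15978) and 30 that were lower. The 9 were ISG15, MX1, IFI6, IFIT3, IFIT1, OAS2, OAS3, USP18 and IFI44L, and ISG15, for example, was at 687 and 719 TPM with sgRNA1 beside 1134 and 1165 TPM with sgRNA3. The count was not stable. It was 1 without sgRNA3 replicate 1 and 0 without any other library, 0 without the low-value filter, without the variance trend or with the replicate block, 5 under median-of-ratios scaling and 7 under quantile normalization. This contrast shares the sgRNA3 libraries with the comparison against LACZ.

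Cytosolic HSP70 chaperones, which refold and shuttle unfolded proteins, rose, while most other chaperones moved little. HSPA8, the constitutive HSP70, went from 567 and 618 TPM to 1399.6 and 1443 TPM, 2.4 times the LACZ mean (log2 change 1.26, SE 0.05, adjusted p = 0.000952). The heat-inducible HSPA1A (32.2 and 35.4 TPM to 86.01 and 97.7 TPM, 1.41) and HSPA1B (43.1 and 39.3 TPM to 106 and 103 TPM, 1.33) rose as well, with no overlap between groups. They are near-identical copies, so how reads split between them is uncertain. Their co-chaperone DNAJA1 was the fourth stable gene that rose (89.6 and 92.3 TPM to 163 and 161 TPM, 0.82). HSPB1, a small heat shock protein, was stable in the other direction (495 and 488 TPM to 294 and 299 TPM, -0.73), and DNAJB1, a classic heat shock target, fell by 0.33. Of 39 members tested, 10 rose and 3 fell, with a median of 0.17. Without 1 of the 4 LACZ and sgRNA3 libraries, 4 to 5 rose. The HSP90 genes HSP90AA1 (0.36) and HSP90AB1 (0.21) and the mitochondrial pair HSPD1 (0.39) and HSPE1 (0.49) were among those that rose, all by less than 0.5. HSPH1 (31.5 and 29.9 TPM against 38.7 and 39.6 TPM) and BAG3 (31.6 and 30.3 TPM against 37.4 and 36.96 TPM), both heat shock targets, and the master regulator HSF1 (43.5 and 37.02 TPM against 35.6 and 36.4 TPM) did not pass.

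The promoter of HSPA8 is shown for its heat shock elements, the motif bound by HSF1 (GAA, any 2 bases, TTC, any 2 bases, GAA, on either strand, in capitals) in the same kind of 250-base window.
HSPA8 promoter, chr11:123062137-123062386, minus strand: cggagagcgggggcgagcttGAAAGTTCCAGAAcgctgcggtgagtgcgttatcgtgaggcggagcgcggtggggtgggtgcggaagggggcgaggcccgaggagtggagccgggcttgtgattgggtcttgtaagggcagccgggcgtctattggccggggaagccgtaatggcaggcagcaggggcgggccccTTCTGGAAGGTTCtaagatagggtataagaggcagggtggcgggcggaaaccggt
The HSPA8 matches begin 230 and 55 bases before the start. Of 34 chaperone genes with a RefSeq promoter, 6 held the motif (17.6%), against 0.557% of RefSeq genes.

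Among 15 genes of the CCT chaperonin and prefoldin, which fold actin and tubulin, 4 rose (CCT3, CCT6A, VBP1 and PDCL3, log2 changes 0.26 to 0.64) and none fell. That was 26.7% called, against 9.94% of all genes and 26.7% of genes with a mean over 100 TPM. None of these 4 was stable. TUBB4B, a beta-tubulin, was stable and rose from 305 and 321 TPM to 497 and 497 TPM (0.66). In the endoplasmic reticulum, XBP1, the transcription factor of the unfolded protein response, fell from 132 and 133 TPM to 79.05 and 80.97 TPM (-0.72, stable). Of 27 genes of that list, 3 rose and 2 fell, with a median of -0.02, and with a LACZ or sgRNA3 library left out none rose and 1 fell.

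Proteasome subunits, which form the protease that degrades ubiquitin-tagged proteins, rose in part and by small steps. Of 48 tested, 18 rose, none fell and 30 did not pass, with a median of 0.18, and the list summed to 9663 and 9722 TPM with LACZ and 11322 and 11269 TPM with sgRNA3. PSMD12, a lid subunit, rose most (86.1 and 75.7 TPM to 136 and 133 TPM, 0.73), and PSMA3 of the core went from 403 and 403 TPM to 542 and 535 TPM (0.42). The groups did not overlap in either gene. The interferon-inducible subunits PSMB8 and PSMB9 rose by 0.23 and 0.33, and the constitutive PSMB7 rose by 0.44. None of the 18 was stable, and 0 to 1 members passed with 1 of the 4 LACZ and sgRNA3 libraries left out. Most subunits are abundant transcripts, a class in which 225 of 1518 genes rose.

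Genes that build ribosomes and start translation also rose in part. Of 60 ribosome biogenesis factors, 16 rose and none fell (median 0.23), including the nucleolar proteins NOP56 (260.1 and 261 TPM to 382 and 369 TPM, 0.52, stable) and NCL (407 and 413 TPM to 524 and 522 TPM, 0.35) and the processome subunit IMP3 (31.01 and 31.2 TPM to 57.1 and 61.1 TPM, 0.90). NOP56 had close replicates and separate groups. ABCE1, the ATPase that splits ribosomes after termination, went from 48.7 and 51.8 TPM to 122 and 117 TPM, 2.39 times the LACZ mean (SE of the log2 change 0.06, adjusted p = 0.00114). It was the stable member of 37 translation factors, of which 10 rose and 4 fell. Those that rose included EIF4G1 (0.51), EIF4E (0.44) and EIF2S1 (0.41), and those that fell were EIF4A2 (-0.37), EIF1 (-0.33), EIF5 (-0.25) and EEF2 (-0.22). The ribosomal proteins themselves did not move together, since 6 of 84 rose and 9 fell, with log2 changes of the called genes from -0.54 to 0.26, and none passed with a LACZ or sgRNA3 library left out. The share of ribosomal proteins called was 17.9%, against 26.7% of all genes with a mean over 100 TPM. Under median-of-ratios scaling 6 rose and 3 fell. Once 1 of the 4 LACZ and sgRNA3 libraries was dropped, 1 to 2 biogenesis factors and 1 to 2 translation factors rose.

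A minority of nuclear genes of mitochondrial proteins passed, and those that did rose by small medians. Of 82 respiratory chain genes 7 rose, of 78 mitochondrial ribosomal proteins 7 rose, and of 30 import genes 6 rose. None fell in these lists, and the medians were 0.04, 0.11 and 0.09. The share that rose was 8.54% and 8.97% in the first pair of lists and larger in the import list. Of all genes 4.22% rose, a smaller share than in each of these lists. Counting calls in either direction, 9.94% of all genes passed, which lies above the first pair of lists and below the import list. The lists were not matched for level. The import channel TOMM40 went from 53.8 and 61.6 TPM to 99.1 and 88.5 TPM (0.69). ATAD3B, an inner membrane ATPase, was stable and rose from 18.4 and 20.7 TPM to 42.7 and 46.6 TPM (1.15). After dropping 1 of the 4 LACZ and sgRNA3 libraries, 0, 0 to 1 and 0 to 1 members of the 3 lists passed. On the mitochondrial genome, the large ribosomal RNA MT-RNR2 fell from 7800.1 and 7597 TPM to 4696 and 4689 TPM (-0.71, SE 0.03, adjusted p = 0.00102, stable). The small one, MT-RNR1, was at 1059 and 1059.8 TPM against 1019 and 1064 TPM and did not pass. MT-ND1 (0.40) and MT-ND2 (0.35) rose, MT-CO1 fell (-0.18, a call lost with scaling), and the other 10 coding genes did not pass. Nuclear copies of mitochondrial sequence share reads with these genes, and ribosomal RNA levels depend on how RNA was selected, which the labels do not state. Transcripts of the mitochondrial genome took 10.6% and 10.7% of the LACZ libraries and 10.5% and 10.3% of the sgRNA3 libraries.

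Iron storage genes rose together with the gene for iron uptake. FTH1 and FTL, the heavy and light chains of ferritin, went from 3089 and 3165 TPM to 4563 and 4508 TPM (0.54, SE 0.03) and from 2165 and 2129 TPM to 3223 and 3215 TPM (0.58, SE 0.02). TFRC, the transferrin receptor, went from 119.99 and 119 TPM to 188 and 189.7 TPM (0.66, SE 0.04). In all 3 the replicates lay close together, the groups did not overlap, and the call was stable (limma adjusted p = 0.00194, 0.00102 and 0.00302). Ferritin genes have many processed pseudogenes that can share reads. LCN2, which binds iron carriers of bacteria, was among the most abundant transcripts and fell from 5588 and 5739 TPM to 4101 and 4109 TPM (-0.46, stable). The metalloreductases STEAP1 (-0.39), STEAP2 (-0.60) and STEAP4 (-1.27) fell. BACH1, a repressor known to act on the ferritin and haem oxygenase genes, fell from 86.2 and 80.99 TPM to 37.1 and 36.6 TPM (-1.16, stable), whereas its target HMOX1 stood at 3.82 and 3.02 TPM against 2.59 and 2.80 TPM and did not pass. The exporter SLC40A1 (5.80 and 5.66 TPM against 3.80 and 4.11 TPM), the iron sensors IREB2 (0.18) and ACO1 (0.02), and the ferritin receptor NCOA4 (0.07) did not pass. In all, 4 of 20 tested iron genes rose and 5 fell. Without 1 of the 4 LACZ and sgRNA3 libraries, 3 to 4 rose and 1 fell.

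Genes of the NRF2 oxidant defence did not share a direction. Of 40 tested, 4 rose and 4 fell (median 0.06), and with a LACZ or sgRNA3 library left out 1 to 2 rose and 0 fell. PRDX1, a peroxidase, was stable (542 and 542 TPM to 720.1 and 733 TPM, 0.42), and GCLM, a subunit of the first enzyme of glutathione synthesis, rose by 0.77, while SLC7A11, the cystine transporter, fell by 0.74 and NFE2L2, which encodes NRF2, by 0.54. NQO1, a standard NRF2 target, stood at 356 and 337 TPM against 335 and 351 TPM. The polyamine-degrading enzymes SAT1 (571 and 558 TPM to 291 and 294 TPM, -0.95) and SMOX (154 and 139 TPM to 79.3 and 80.6 TPM, -0.86) were both stable and fell.

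Replication genes rose in part and mitotic genes did not. Of 49 G1/S and DNA replication genes, 18 rose and none fell (median 0.27), while of 38 mitotic genes none rose and CDC25C fell (median -0.04). PCNA, the sliding clamp, went from 298 and 288 TPM to 479 and 484 TPM (0.72, stable). SLBP, which binds the stem-loop of replication-dependent histone mRNAs, went from 61.9 and 59.5 TPM to 111 and 121 TPM (0.92, stable). In both genes the groups were well apart. MCM2 to MCM7 rose by 0.34 to 0.56. Without 1 of the 4 LACZ and sgRNA3 libraries 2 to 3 of the 49 passed. Of 53 histone genes 4 rose and 4 fell, and with a LACZ or sgRNA3 library left out 2 to 3 rose and 1 to 2 fell. HIST1H2BK (161 and 148 TPM to 329.6 and 341 TPM, 1.11) and the DNA-damage histone H2AFX (97.03 and 97.5 TPM to 145 and 149 TPM, 0.59) rose, and the linker histone H1F0, linked to resting cells, fell from 340.3 and 321 TPM to 169 and 166 TPM (-0.98). These 3 were stable. MYC, which drives growth genes, fell from 281 and 283 TPM to 138 and 129 TPM (-1.08, stable), while CCND1 (0.40) and SKP2 (8.88 and 7.71 TPM to 19.2 and 18.1 TPM, 1.08) rose.

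The ATF4 and CHOP programme, by which cells respond to amino acid shortage and misfolded protein, fell for the most part. Of 20 members tested 15 fell and 1 rose, with a median of -1.01, and 11 of the 15 were stable. ATF4 itself went from 483 and 486 TPM to 264 and 253 TPM (-0.90), DDIT3, which encodes CHOP, from 105 and 110.1 TPM to 38.6 and 38.8 TPM (-1.45), and the pseudokinase TRIB3 from 148 and 153 TPM to 71.8 and 68.3 TPM (-1.09). As in every called gene, the groups did not overlap. The member that rose was ATF5, a transcription factor that is itself a target of the response and also acts on mitochondrial chaperones (18.9 and 18.8 TPM to 41.9 and 44.2 TPM, 1.15, SE 0.08, stable). The sensor kinases EIF2AK3 (10.6 and 8.45 TPM against 9.26 and 12.5 TPM) and EIF2AK4 (31.4 and 27.8 TPM against 33.6 and 30.3 TPM) did not pass. In the fits that left out 1 of the 4 LACZ and sgRNA3 libraries, 11 to 13 members fell.

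The CHAC1 promoter is shown for its match to TGATGNAA, the composite element read by C/EBP and ATF dimers (either strand, in capitals).
CHAC1 promoter, chr15:40953221-40953470, plus strand: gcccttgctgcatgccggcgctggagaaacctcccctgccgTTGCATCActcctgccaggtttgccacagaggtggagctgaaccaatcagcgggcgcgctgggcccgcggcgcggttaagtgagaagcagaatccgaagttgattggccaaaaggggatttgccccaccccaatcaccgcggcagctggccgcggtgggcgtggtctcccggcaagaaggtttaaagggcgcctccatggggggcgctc
The match lies on the opposite strand, beginning 209 bases before the start. Of 19 members with a RefSeq promoter, 4 held these letters (21.1%), against 3.89% of RefSeq genes.

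Amino acid supply genes, many of them known ATF4 targets, fell in part. Of 19 genes for serine, asparagine and proline synthesis, 11 fell and 1 rose (median -0.41). ASNS, which makes asparagine, went from 126 and 121 TPM to 47.7 and 41.3 TPM (-1.45), and PHGDH, the first step of serine synthesis, from 63.95 and 62.1 TPM to 24.96 and 27.3 TPM (-1.24). PSPH and the folate enzyme MTHFD2 were the other stable members (-0.73 and -0.73). PCK2, mitochondrial phosphoenolpyruvate carboxykinase, was also stable (58.7 and 58.7 TPM to 24.1 and 20.97 TPM, -1.35). Of 22 amino acid transporters, 4 fell, among them both chains of the leucine exchanger, SLC7A5 (76.4 and 79.6 TPM to 36.5 and 36.2 TPM, -1.08) and SLC3A2 (309.6 and 305 TPM to 187 and 196 TPM, -0.68). Of 22 cytosolic tRNA synthetases 5 fell, of which CARS (66.7 and 71.2 TPM to 34.4 and 33.3 TPM) was stable, and 2 rose, KARS (0.33) and WARS (0.36). WARS is also a known interferon-induced gene. Without 1 of the 4 LACZ and sgRNA3 libraries, 4 to 5 synthesis genes, 2 transporters and 1 synthetases fell.

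Both stress-induced brakes on mTORC1, the kinase complex that couples nutrients to growth, were among the deepest falls. DDIT4 went from 248 and 257 TPM to 57.6 and 60.2 TPM (-2.08, SE 0.05, adjusted p = 0.000612) and SESN2 from 24.7 and 23.9 TPM to 5.61 and 5.13 TPM (-1.99, SE 0.11). The other brakes TSC1 (-0.28), TSC2 (0.60) and DEPTOR (-0.14) and the kinase MTOR (0.14) did not pass, and RPTOR rose by 0.49. Of the 21 genes of the list, 3 rose and 4 fell, and DDIT4 and SESN2 were its stable members.

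Immediate early factors, which are transcribed within minutes of growth factor or stress signals, fell with EGR1. Of 15 tested, 8 fell and 1 rose, with a median of -0.67. JUNB went from 49.3 and 46.5 TPM to 11.8 and 12.6 TPM (-1.89), MAFF from 59.6 and 57.9 TPM to 27.6 and 28.6 TPM (-1.04) and IER3, a survival gene, from 1261 and 1169 TPM to 749 and 739 TPM (-0.71). These 3 and EGR1 were the stable members and had no overlap between groups. FOS fell from an already low 5.75 and 5.02 TPM to 2.08 and 1.29 TPM, and IER5 rose by 0.51. Once 1 of the 4 LACZ and sgRNA3 libraries was dropped, 4 fell.

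The EGR1 promoter is shown for its CArG boxes, the motif of the serum response factor, in capitals.
EGR1 promoter, chr5:138465229-138465478, plus strand: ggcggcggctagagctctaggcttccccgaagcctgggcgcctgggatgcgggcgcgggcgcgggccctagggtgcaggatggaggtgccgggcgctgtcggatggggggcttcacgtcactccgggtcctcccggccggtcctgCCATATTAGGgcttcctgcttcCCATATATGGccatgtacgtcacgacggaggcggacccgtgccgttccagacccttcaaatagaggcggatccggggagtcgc
The EGR1 matches begin 105 and 83 bases before the start. Of 12 immediate early genes with a RefSeq promoter 2 held a CArG box, against 1.44% of RefSeq genes. The cyclic AMP response element (2.03% of RefSeq genes) and the NF-kB site (6.28%) were each held by 2 of the 12 as well. The count is thus not particular to the CArG box.

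Of 12 genes of the EGF receptor family and its ligands, 4 fell and none rose. HBEGF, a heparin-binding ligand, went from 251 and 239.8 TPM to 69.3 and 65.8 TPM (-1.85, SE 0.05), and AREG from 588 and 604 TPM to 345 and 360.1 TPM (-0.76), both stable. EREG (554 and 529.7 TPM to 380.4 and 383 TPM, -0.50) and the receptor ERBB3 (-0.56) also fell. EGFR stood at 99.3 and 103 TPM against 96.3 and 99.98 TPM with overlapping groups, and TGFA at 88.99 and 94.1 TPM against 96.5 and 90.01 TPM. Neither passed, and 2 of the 12 fell with 1 of the 4 libraries left out. Of 19 ERK feedback genes 9 fell and 1 rose (median -0.49). ERRFI1, which inhibits the receptor, went from 355 and 339 TPM to 109 and 102 TPM (-1.71), and the phosphatase DUSP5 from 67.9 and 68.4 TPM to 30.5 and 29.7 TPM (-1.15). ERRFI1, DUSP5 and PHLDA1 (-1.12) were stable, and 3 to 5 of the 19 fell with 1 of the 4 libraries left out. Among other heparin-binding factors, VEGFA fell from 625 and 653 TPM to 314 and 315 TPM (-1.02, stable), whereas FGFBP1, a carrier that releases FGFs from heparan sulfate, rose from 60.5 and 56.4 TPM to 118 and 106 TPM (0.93) and was not stable.

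Targets of TGF-beta and the YAP coactivator also fell in part. Of 22 tested 11 fell, 10 of them stable, and NT5E rose (0.53), with a median of -0.43. GADD45B, a stress-signalling partner of the p38 pathway, went from 99.7 and 97.9 TPM to 27.99 and 28.2 TPM (-1.78), CTGF from 49.98 and 48.3 TPM to 22.8 and 22.5 TPM (-1.08) and ANKRD1, a YAP target abundant here, from 1316 and 1297 TPM to 921 and 913 TPM (-0.51). Replicates lay close together and the groups apart in all 3. TGFBI fell by only 0.21 and was not stable. The counts with 1 of the 4 libraries left out were 10. Of 26 TGF-beta family ligands and receptors 8 fell and none rose, among them TGFB2 (172 and 169 TPM to 107 and 104 TPM, -0.69, stable), GDF15 (stable) and the activin subunit INHBA (10.5 and 8.34 TPM to 1.85 and 1.81 TPM). For these, 2 to 3 fell with 1 of the 4 libraries left out.

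Chemokines moved in both directions. CXCL2 went from 314 and 327 TPM to 99.98 and 107 TPM (-1.62, SE 0.05), CXCL8 from 868 and 786 TPM to 338 and 325 TPM (-1.31) and CXCL3 from 647 and 637 TPM to 350.3 and 341 TPM (-0.89), all stable. These are neutrophil attractants, as is CXCL5, which rose from 1506 and 1351 TPM to 2248 and 2186 TPM (0.64). CXCL1 (1285 and 1203 TPM against 1126 and 1068 TPM) did not pass, and CCL2, a monocyte attractant, rose from 18.3 and 22.7 TPM to 53.5 and 46.5 TPM (1.25). CXCL5 and CCL2 were not stable. Of 14 chemokines 5 fell and 3 rose, and 3 to 4 fell and 0 to 2 rose with 1 of the 4 LACZ and sgRNA3 libraries left out.

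The promoter of CXCL2 is shown for its NF-kB site, which reads as a match at neighbouring positions because the site is nearly symmetrical (in capitals).
CXCL2 promoter, chr4:74099196-74099445, minus strand: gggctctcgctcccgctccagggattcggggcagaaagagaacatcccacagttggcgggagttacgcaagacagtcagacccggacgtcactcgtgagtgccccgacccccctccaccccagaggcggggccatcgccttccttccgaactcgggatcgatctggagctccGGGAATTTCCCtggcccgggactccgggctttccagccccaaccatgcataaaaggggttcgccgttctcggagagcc
The CXCL2 matches begin 78 and 77 bases before the start. Of 11 chemokine genes with a RefSeq promoter 8 held an NF-kB site (72.7%), against 6.28% of RefSeq genes. That count covers chemokines that rose, fell or did not pass and was not split by direction. Any link between the site and the changes was not tested. The motif was chosen after the values were seen.

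Of 21 NF-kB subunits and feedback genes 11 fell and none rose (median -0.43). The subunit NFKB1 did not pass (29.4 and 30.5 TPM against 27.8 and 30.5 TPM, log2 change -0.04), with overlapping groups. TNFAIP2 (314 and 329 TPM to 202 and 202 TPM, -0.67) and the nuclear inhibitor NFKBIZ (65.9 and 66.8 TPM to 39.2 and 38.2 TPM, -0.76) were stable, and the deubiquitinase TNFAIP3 (-0.85) and NFKBIA (-0.32) fell without being stable. Of 19 cytokine genes 8 fell and none rose. IL6 went from 209 and 211 TPM to 104 and 103 TPM (-1.01, stable) and LIF from 157 and 156 TPM to 67.1 and 76.5 TPM (-1.11), whereas IL1B (9.20 and 8.55 TPM against 8.65 and 10.3 TPM) and IL18 (115 and 113 TPM against 116 and 101 TPM) did not pass. After dropping 1 of the 4 LACZ and sgRNA3 libraries, 2 to 4 NF-kB genes and 1 to 3 cytokine genes fell. PTGS2, the inducible prostaglandin synthase, was stable (143 and 146 TPM to 58.5 and 57.6 TPM, -1.30). Of 20 tested immune checkpoint and costimulation genes 2 rose and 3 fell (median -0.03), and with a LACZ or sgRNA3 library left out 0 to 1 rose and 1 to 2 fell. TNFSF18, the ligand of the T-cell receptor GITR, went from 23.04 and 19.8 TPM to 4.68 and 4.62 TPM (-1.98, stable), and CD274, which encodes the checkpoint ligand PD-L1, from 58.8 and 55.5 TPM to 28.9 and 24.3 TPM (-1.08). CD274 was not stable. TNFSF15, a TNF-family cytokine, rose from 38.4 and 37.6 TPM to 56.8 and 58.3 TPM (0.59).

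In sugar metabolism the largest fall of a list member was in a regulator. TXNIP, which restrains glucose uptake, went from 232 and 224 TPM to 65.3 and 65.2 TPM (-1.79, SE 0.05, adjusted p = 0.000612), and its relatives ARRDC4 (-1.38) and ARRDC3 (-0.84) fell too. Among enzymes, PGK1 was stable (639 and 638 TPM to 458 and 465 TPM, -0.47). Of 33 glycolysis and glucose uptake genes 9 fell and PFKFB3 rose (0.41), with a median of -0.11. Hypoxia-induced genes fell in 9 of 25 cases and rose in none (median -0.43), including NDRG1 (20.1 and 21.5 TPM to 9.27 and 7.96 TPM, -1.18) and HIF1A (-0.47), and VEGFA was the stable one. Of 29 cholesterol genes 5 fell and none rose (median -0.20). None of the cholesterol genes was stable. In the fits that left out 1 of the 4 LACZ and sgRNA3 libraries, 2 glycolysis, 1 to 2 hypoxia and 0 to 1 cholesterol genes fell.

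Secreted and surface proteases, listed together with inhibitors, fell more often than they rose. Of 32 members tested 12 fell and 2 rose (median -0.15), and those that rose were a protease and an inhibitor. TMPRSS4, a membrane serine protease of carcinoma cells, went from 66.2 and 70.3 TPM to 23.4 and 22.9 TPM (-1.52, SE 0.08, stable). All 4 tested kallikreins fell: KLK6 (167 and 164 TPM to 78.95 and 91.97 TPM, -0.95), KLK10 (-0.80), KLK8 (-1.12) and KLK11 (3.95 and 2.61 TPM to 0.14 and 0.58 TPM). None of the kallikreins was stable. The tissue plasminogen activator PLAT fell from 977 and 989 TPM to 751 and 739 TPM (-0.40), whereas the urokinase PLAU (1629.7 and 1652 TPM against 1584 and 1555 TPM) and the membrane protease MMP14 (280.3 and 258 TPM against 275 and 258 TPM) did not pass. The genes that rose were ADAM8 (113 and 115 TPM to 169 and 174 TPM, 0.58) and the protease inhibitor SERPINE2 (43.8 and 45.04 TPM to 76.2 and 76.6 TPM, 0.77), both stable. Without 1 of the 4 LACZ and sgRNA3 libraries, 1 to 3 of the list fell.

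Transcription factors of duct and gut epithelium fell in part and rose in none. Of 20 tested 8 fell, with a median of -0.38. ELF3, an epithelial ETS factor, went from 127 and 131 TPM to 66.00 and 72.1 TPM (-0.89) and KLF5 from 129.6 and 132 TPM to 87.3 and 88.03 TPM (-0.57), and both were stable. SOX9 (-0.38) and GATA6 (-0.53), which mark ductal and classical tumour identity, fell without being stable, and the call of GATA6 was lost under at least 1 of the scaling alternatives. Of 35 junction genes 8 fell and none rose, among them CLDN3 (48.03 and 46.5 TPM to 23.4 and 25.7 TPM, -0.92), CLDN4 (-0.39) and OCLN (-0.68), with no stable member. Of 20 mesenchymal genes 5 fell and none rose, with COL1A1 (74.8 and 74.02 TPM to 39.01 and 35.1 TPM, -0.99) and the actin-binding TAGLN (66.4 and 68.2 TPM to 36.3 and 34.02 TPM, -0.92) stable. Once 1 of the 4 LACZ and sgRNA3 libraries was dropped, 2 duct factors, 0 to 2 junction genes and 2 mesenchymal genes fell.

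Secreted products of the epithelium varied one by one. MUC6, a gel-forming gastric mucin, stood at 33.1 and 12.3 TPM with LACZ and 0.58 and 0.71 TPM with sgRNA3. The LACZ values differed widely from each other, both sgRNA3 values were far lower, and the gene fell (-3.69) without being stable. MUC1 (464 and 333 TPM against 392 and 407 TPM) had overlapping groups. S100P, a calcium-binding protein of pancreatic tumours, rose from 6.92 and 9.64 TPM to 39.8 and 31.6 TPM (1.99, not stable), and ANXA10 from 199.6 and 204 TPM to 286 and 281 TPM (0.49, stable). Of 12 tested hormone genes 5 fell and 2 rose, and with a LACZ or sgRNA3 library left out 1 to 2 fell and 0 rose. EDN1, the vasoconstrictor endothelin, went from 139.7 and 137 TPM to 78.1 and 72.7 TPM (-0.87, stable), STC2 from 556 and 597 TPM to 351 and 325 TPM (-0.77) and PTHLH, which encodes the parathyroid hormone-related peptide, rose from 127 and 131 TPM to 181 and 177 TPM (0.47). CYP24A1, which inactivates vitamin D, fell from 62.1 and 65.97 TPM to 20.7 and 22.8 TPM (-1.52, stable), and so did TSC22D3, a glucocorticoid-induced gene (161 and 174 TPM to 64.3 and 67.3 TPM, -1.33, stable), and NNMT, which methylates nicotinamide (314 and 349 TPM to 155 and 147 TPM, -1.13, stable).

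**Figure D3:**
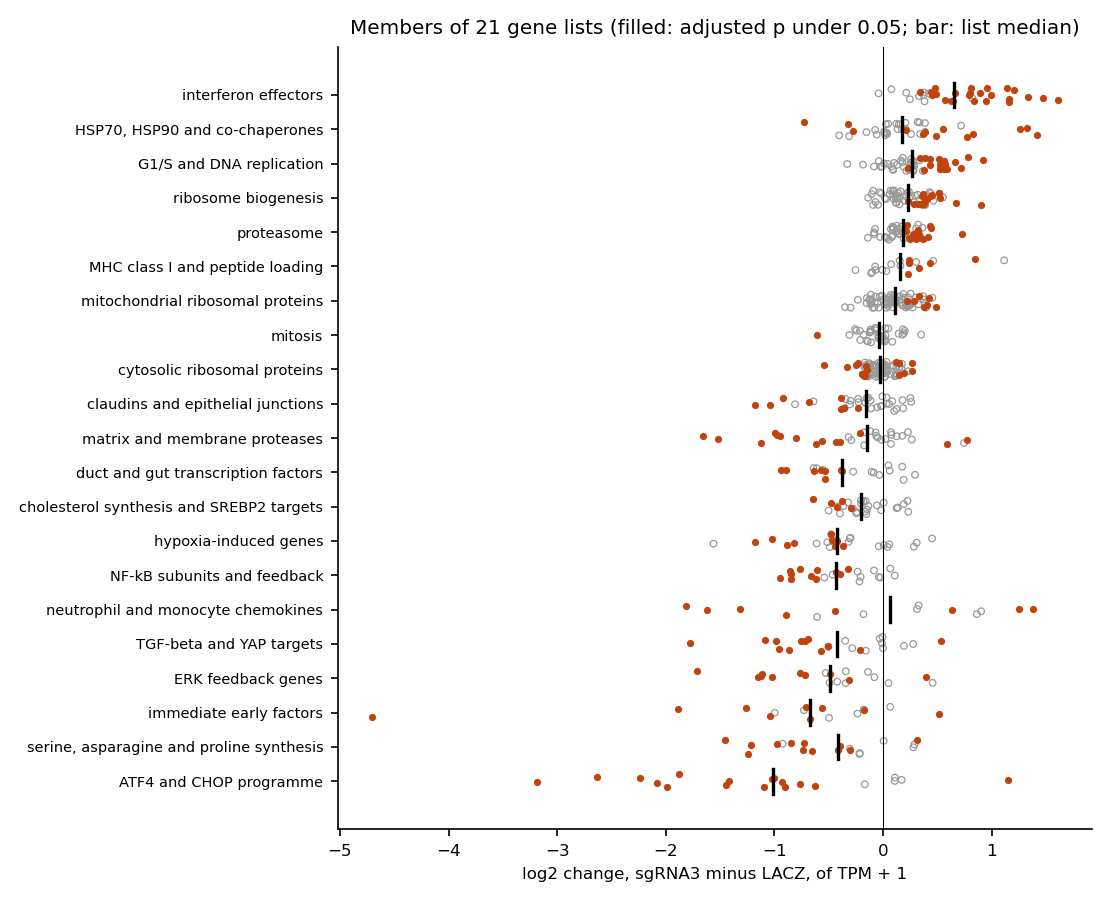
Log2 change with sgRNA3 (horizontal axis, of TPM plus 1) of the tested members of 21 gene lists (rows), with filled points for members that passed and a bar at each list's median. The interferon effectors lie to the right with a median of 0.66 and the ATF4 and CHOP programme to the left with a median of -1.01, while mitosis and cytosolic ribosomal proteins centre near 0.

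Genes outside the protein-coding class held few calls. Of 1762 long noncoding genes 22 rose and 54 fell (4.31%), and of 714 pseudogenes 8 rose and 23 fell (4.34%), against 11.3% of 12744 protein-coding genes. The classes were not matched for level, and calls ran from 2.87% of genes under 5 TPM to 26.7% over 100 TPM. SNHG1, a host of small nucleolar RNAs, was the one stable long noncoding gene (509 and 485 TPM to 306 and 311 TPM, -0.68). Of 23 such host genes 7 fell and 1 rose, with GAS5 at 667 and 663 TPM against 452 and 485 TPM (-0.50). After dropping 1 of the 4 LACZ and sgRNA3 libraries, 1 to 3 host genes fell. TRBC2, the T-cell receptor beta constant gene, rose from 122 and 109 TPM to 219 and 204 TPM (0.87, stable), while the T-cell marker CD3E was at or below 0.24 TPM. TRBC1 is a near-identical copy, so their separate values are uncertain.

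A few transcripts were absent or nearly so in either LACZ or sgRNA3 and present in the other, in both directions. CCDC169-SOHLH2, a read-through of neighbouring genes on chromosome 13, was at 0.05 and 0.04 TPM with LACZ and 35.8 and 19.4 TPM with sgRNA3 (4.71, SE 0.31, stable). Both sgRNA3 values were far above LACZ and well apart from each other. CCDC169 itself stood at 3.56 and 1.72 TPM against 3.33 and 2.95 TPM, so how reads split between the overlapping models is uncertain. In all, 36 genes were listed at 0 in both LACZ libraries and at 1 TPM or more in both sgRNA3 libraries, and 33 the other way round. The 4 with the highest mean level were MSTRG.5370 (67.9 and 8.95 TPM with LACZ), AC007000.3 (53.1 and 16.1 TPM with LACZ), MSTRG.6279 (7.83 and 47.2 TPM with sgRNA3) and MSTRG.20652 (19.2 and 33.6 TPM with sgRNA3). All but AC007000.3 are loci named by the authors' assembly, and the replicates of the higher group lay far apart in each.

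**Figure D4:**
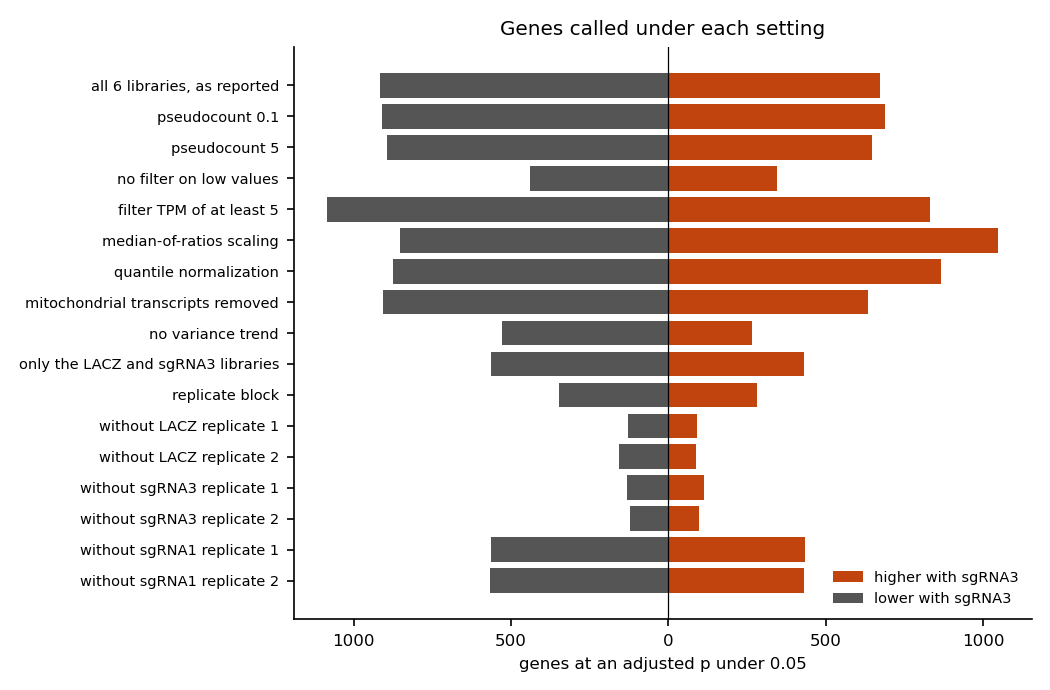
Number of genes at an adjusted p under 0.05 that were higher (orange, right) or lower (grey, left) with sgRNA3, for the analysis as reported (674 and 915) and each alternative. Leaving out 1 of the 4 LACZ and sgRNA3 libraries gave 87 to 112 higher and 121 to 156 lower genes, and median-of-ratios scaling gave more higher than lower genes.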

How the data were processed

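RNA-seq libraries of CFPAC-1 cells were compared from the authors' deposited gene table, whose unit is TPM with 2 decimals. Per the submitters' processing notes the tools were HISAT2 2.1.0, RSEM 1.3.1 and DESeq2 1.24.0 on GRCh38. Neither annotation release nor strandedness is stated there, so antisense and near-identical genes cannot be separated with certainty. Library depth cannot be recovered from TPM, and intervals of counting error were therefore not computed. DESeq2 was not used here because TPM values are not counts. Symbols and gene types came from GENCODE 29, in which 58611 of the table's 58884 Ensembl identifiers were found.

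Genes with at least 1 TPM in at least 2 of the 4 LACZ and sgRNA3 libraries were fitted as log2(TPM + 1) in limma 3.58.1 (R 4.3.3) with a variance trend, 3 residual and 2.40 prior degrees of freedom. All 6 libraries entered the fit, so the groups share an estimate of the spread. P-values are two-sided, adjusted by Benjamini-Hochberg over 15978 genes. Left-out fits leave a group with a single library, which is assumed to vary like the others. Replicates correlated at 0.966 (LACZ) and 0.961 (sgRNA3) across genes, which are not independent, and libraries of the 2 groups at 0.950 to 0.955. The gene lists and comparison were chosen with earlier results of these data known.

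Named were SULF2 and SULF1; the 15 raised and 15 lowered stable protein-coding genes with the largest log2 change and a mean of at least 5 TPM in the higher group; the 5 raised and 5 lowered with the largest change in mean TPM; the first 2 and up to 5 passing members of a described list; stable long noncoding genes; and the 4 most abundant genes at 0 in one group. Other genes were chosen after their values were seen. A few genes that this rule would name are not reported here. Promoters were the 250 bases before each start in RefSeq (GRCh38.p14), matched by symbol. Each list described with a motif was also searched for the other motifs shown, the cyclic AMP response element and the AP-1 site. Most of those counts are not printed. The alternatives tried were pseudocounts of 0.1 and 5, a minimum of 5 TPM or none, median-of-ratios or quantile scaling, removal of mitochondrial transcripts, no variance trend, only the 4 libraries, a replicate block, a log2 change of at least 1, and each library left out.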

Additional observations from a re-analysis of the deposited data

How the results depend on the processing

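The 674 higher and 915 lower genes kept these counts within 1.5 times under either pseudocount, a 5 TPM minimum, quantile normalization and removal of mitochondrial transcripts. Counts were 345 and 440 without the low-value filter, 266 and 529 without the variance trend, and 430 and 562 with only the LACZ and sgRNA3 libraries. Median-of-ratios scaling gave 1049 higher and 854 lower genes, and of the main calls 669 and 818 remained. A log2 change of at least 1 left 79 higher and 174 lower. Leaving out each library in turn gave 87 to 433 higher and 121 to 566 lower genes. For SULF2, left-out fits gave log2 changes of -1.33 to -1.14, and the call was lost without any LACZ or sgRNA3 library, and without the filter (log2 change -1.23, limma adjusted p = 0.0528). Of 503 genes checked one by one under these settings, none changed sign with a call. Genes named as not passing were not all among them. The deviations of same-numbered libraries correlated at 0.0076, -0.023 and -0.034 between groups, so they showed no strong shift shared across genes. Whether same-numbered libraries were handled together is not stated. With the replicate block 281 genes were higher and 347 lower, and SULF2 missed the threshold (-1.23, adjusted p = 0.0536). TPM keeps no depth, so how far counting error limits low genes is unknown. The smallest group has 2 libraries, and their spread may be technical.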
